A study of Rattus norvegicus with 24 samples.

Results

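The 8 genes described here encode the amyloid precursor protein and its relatives (App, Aplp1 and Aplp2), enzymes that cut them (Bace1, Adam10, Psen2 and Ncstn) and the microtubule-associated protein tau (Mapt). They were chosen by gene symbol, and each matched 1 locus among the 26641 named loci of the 42334 loci measured. For 7 of them the symbol matched exactly. Aplp1 was written in capitals in the files and was matched ignoring case, and 9 of its 12 nearest protein-coding neighbours in RefSeq were also found around it in the files.

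Messenger RNA was sequenced from 12 adult male Sprague-Dawley rats, from cortex next to the lesion (perilesional) and from thalamus on the same side (ipsilateral), at 3 months after surgery, which gave 24 libraries. In 6 rats a traumatic brain injury (TBI) was induced by lateral fluid percussion, a pressure pulse delivered to the dura through a hole in the skull. The other 6 were sham-operated, meaning that they had the same anesthesia and craniectomy without the pulse, and no rat was free of surgery. The study used magnetic resonance imaging to find injured rats with prominent perilesional inflammation, which limits how far the TBI group stands for all injured rats. Both regions came from the same rats, so the 4 groups (sham cortex, TBI cortex, sham thalamus and TBI thalamus) had 6 libraries each. The libraries held 30568927 to 54608922 fragments, and the scarcest member, Psen2, was counted with 551 to 1788 fragments per library. Markers of cortical neurons (Tbr1, Slc17a7, Neurod6 and Fezf2) were lower in thalamus in 4 of 4 cases, in sham and in TBI rats alike. Markers of thalamic neurons (Tcf7l2, Lef1, Slc17a6, Prkcd and Rora) were higher there in 5 of 5, again in both. Over all loci tested 62.2% differed between the regions in sham rats and 57.5% in TBI rats. In sham rats the median log2 difference of thalamus over cortex was -5.74 for the cortical and 4.68 for the thalamic markers. Ttr, a transcript of the choroid plexus, varied widely within groups, from 145 to 229743 normalized counts in TBI thalamus, with both regions of TBI rat 45 at the top of their groups.

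The amyloid precursor protein is a membrane protein of neurons and other cells. It is cut either by alpha-secretase, for which Adam10 is the main enzyme in neurons, or by beta-secretase, encoded by Bace1. Gamma-secretase, a complex of a presenilin such as that encoded by Psen2, nicastrin (Ncstn), an Aph1 protein and Psenen, then cuts the remaining stump within the membrane, and after a beta cut this releases amyloid-beta peptide. Tau binds and stabilises axonal microtubules and loses its grip when heavily phosphorylated. Amyloid precursor protein gathers in injured axons, and tau phosphorylation is a known feature of brain trauma.

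In the coordinates of the files, App lay on chromosome 11 from 28048567 to 28265240, Aplp1 on chromosome 1 from 90053339 to 90063214 and Aplp2 on chromosome 8 from 32323516 to 32353901. Bace1 lay on chromosome 8 from 48766004 to 48824248, and Adam10 on the same chromosome from 75840110 to 75974623. Psen2 and Ncstn lay on chromosome 13, from 103521460 to 103547127 and from 94974008 to 94990220. Mapt lay on chromosome 10 from 92050726 to 92148014. These spans cover the assembled gene with its exons and introns. The files do not name their genome build, and the sources give both RGSC3.4 and Rnor_5.0, so they should not be set beside coordinates of another build.

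The sequences around the start sites are shown for the pair of precursor genes that were lower after TBI in cortex (App and Aplp2) and for the pair of enzymes that changed in opposite directions in the thalamus (Bace1 and Adam10). Each is 300 bases long, from 250 bases before to 50 bases after the gene's start, 5′ to 3′ on the gene's strand, from RefSeq on build GRCr8. The positions are chr11:37722789-37723088 on the minus strand for App, chr8:37919982-37920281 on the minus strand for Aplp2, chr8:55038592-55038891 on the plus strand for Bace1 and chr8:80226612-80226911 on the plus strand for Adam10. Capitals mark the GC box GGGCGG, bound by factors such as Sp1, and the CCAAT box, each searched on both strands, so that a CCAAT box on the other strand reads ATTGG.
App: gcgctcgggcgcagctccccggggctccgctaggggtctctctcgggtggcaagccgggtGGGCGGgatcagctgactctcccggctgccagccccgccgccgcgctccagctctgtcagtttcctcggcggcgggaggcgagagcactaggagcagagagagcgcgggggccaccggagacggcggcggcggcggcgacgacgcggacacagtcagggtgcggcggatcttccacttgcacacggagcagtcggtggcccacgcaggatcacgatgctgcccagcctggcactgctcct
Aplp2: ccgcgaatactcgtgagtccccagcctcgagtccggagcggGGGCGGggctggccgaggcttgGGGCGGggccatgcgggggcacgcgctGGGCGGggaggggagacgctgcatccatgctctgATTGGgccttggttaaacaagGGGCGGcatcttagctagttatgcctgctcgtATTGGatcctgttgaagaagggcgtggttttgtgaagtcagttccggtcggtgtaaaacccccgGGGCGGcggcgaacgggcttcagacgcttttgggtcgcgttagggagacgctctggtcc
Bace1: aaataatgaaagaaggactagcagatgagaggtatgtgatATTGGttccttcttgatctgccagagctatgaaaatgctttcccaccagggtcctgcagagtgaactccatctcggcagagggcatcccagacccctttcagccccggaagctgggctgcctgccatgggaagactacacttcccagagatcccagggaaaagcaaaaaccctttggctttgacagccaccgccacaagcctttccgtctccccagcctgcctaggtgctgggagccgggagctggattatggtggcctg
Adam10: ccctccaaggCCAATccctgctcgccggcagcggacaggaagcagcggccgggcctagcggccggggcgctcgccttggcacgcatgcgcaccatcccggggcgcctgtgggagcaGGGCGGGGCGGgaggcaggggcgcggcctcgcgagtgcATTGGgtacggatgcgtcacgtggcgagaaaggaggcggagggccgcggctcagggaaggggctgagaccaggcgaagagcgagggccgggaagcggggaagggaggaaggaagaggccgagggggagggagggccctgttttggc
The App window held 1 GC box and no CCAAT box, and the Aplp2 window held 5 and 2. The Adam10 window held 2 GC boxes, which overlap by 1 base, and 2 CCAAT boxes. The Bace1 window held no GC box and 1 CCAAT box. A GC box was found in 33.1% of all 33469 rat windows of this length and a CCAAT box in 37.5%, and TATAAA, present in 14.2% of all windows, was in none of the 4. Guanine and cytosine made up 72.7% of the App window, 64.3% of the Aplp2 window, 73.3% of the Adam10 window and 54.7% of the Bace1 window, against a median of 51.7% over all windows. Windows were found for 7 of the 8 genes, all but Mapt. These matches are a description of the letters and were not tested against the expression values.

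The first question was whether these genes differed between TBI and sham rats within each region. The values are normalized counts, which are fragments per locus divided by a scaling factor for each library, so a level can be compared between groups but not between genes of different length. Differences are given on the scale of log2(normalized count + 1) with their standard error (SE), tested by limma with p-values adjusted over all loci by the Benjamini-Hochberg method, and a locus counts as changed at an adjusted p under 0.05. In the cortex 4 of 8 members changed, with App, Aplp2 and Mapt lower and Psen2 higher. Of the 15493 loci tested there, 29.2% changed, 14.9% lower and 14.3% higher. In the thalamus 3 of 8 members changed, with Aplp2 and Bace1 lower and Adam10 higher. Of the 15564 loci tested in the thalamus, 35.4% changed, 20.9% lower and 14.5% higher. This split depended on the scaling, since the lower loci were 59.0% of those changed with the deposited scaling, 48.0% with upper quartile scaling and 44.9% with the edgeR count model. A share among 8 genes is coarse, and nothing is read from the counts beyond the single genes. The median log2 difference of the members was -0.021 in cortex and -0.058 in thalamus, beside -0.0096 and -0.023 over all loci tested. These are bulk tissue samples, in which fewer cells of a type and less RNA per cell cannot be told apart.

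**Figure D1:**
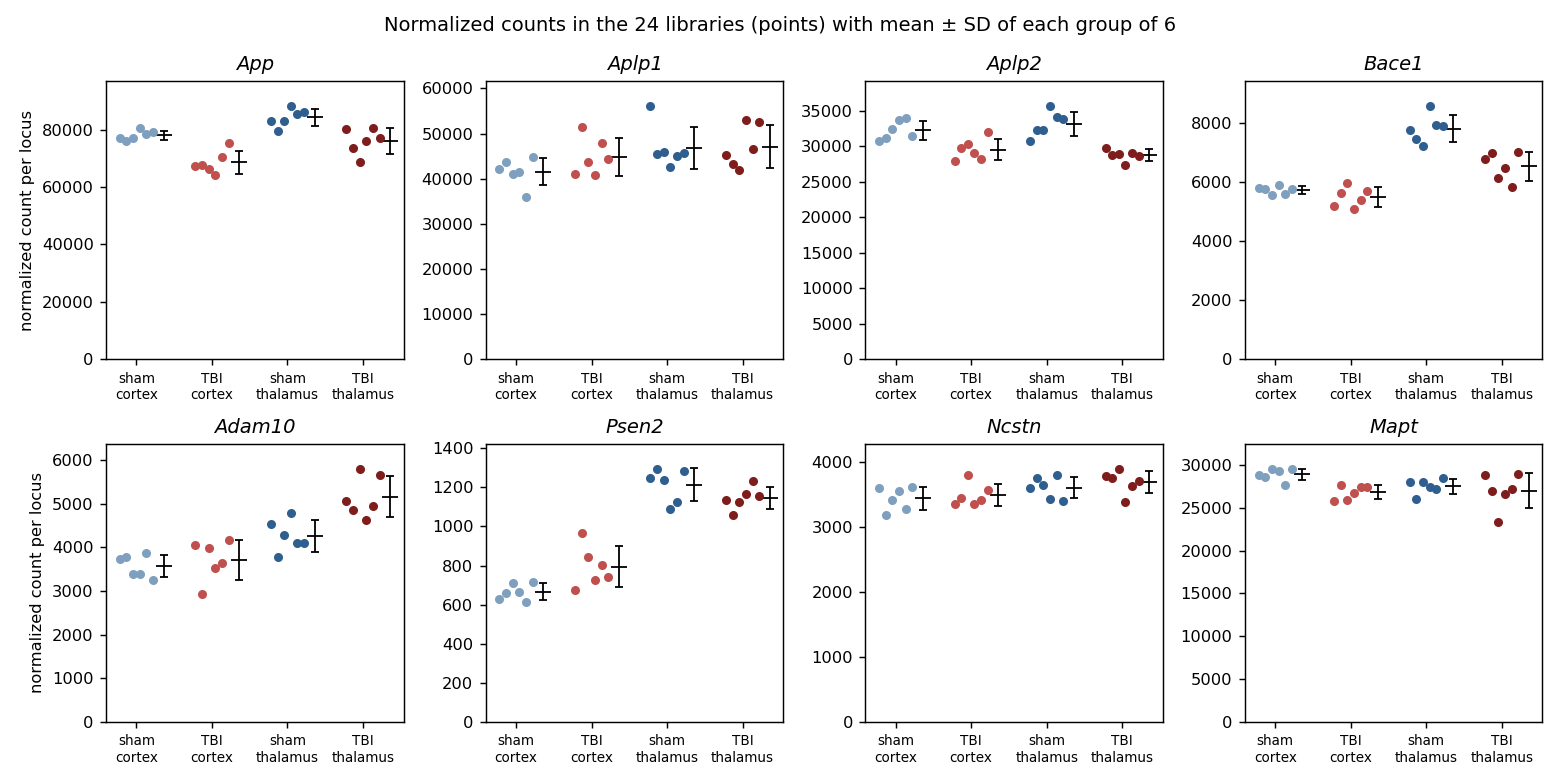
Normalized count per locus (vertical axes from 0) of the 8 genes in the 24 libraries, 1 point per rat, with the mean ± SD of each group of 6. App in TBI cortex (64110 to 75190) lies wholly below sham cortex (75890 to 80501), and Psen2 is higher in thalamus than in cortex in every library.

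App, the precursor of amyloid-beta, ranged in sham cortex from 75890 to 80501 with a median of 77752, and in TBI cortex from 64110 to 75190 with a median of 67514. All 6 TBI cortices lay below every sham cortex. The spread among TBI rats was wider, with an SD of 3871 around a mean of 68513, than among sham rats, with an SD of 1670 around a mean of 77984 (n = 6 each). In thalamus App ranged from 79655 to 88100 with a median of 84211 in sham rats and from 68648 to 80570 with a median of 76454 in TBI rats. There 4 of the 6 TBI values lay below every sham value and the groups overlapped. The log2 difference was -0.19 (SE 0.045, limma adjusted p = 0.0058) in cortex and -0.15 (SE 0.057, adjusted p = 0.055) in thalamus, so only the cortical difference passed the threshold. The cortical call held in all 20 alternative analyses, at adjusted p from 0.00098 to 0.022. The thalamic value passed in 4 of 20, among them those without sham rat 32 (adjusted p = 0.047) or without TBI rat 56 (adjusted p = 0.046).

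Aplp2 is a widely expressed relative of App that is cut by the same secretases but holds no amyloid-beta sequence. In thalamus it ranged from 30774 to 35612 with a median of 33050 in sham rats and from 27318 to 29788 with a median of 28827 in TBI rats. The groups did not overlap, and the log2 difference was -0.20 (SE 0.047, limma adjusted p = 0.0039), a call that held in all 20 alternatives. In cortex Aplp2 ranged from 30763 to 33947 with a median of 31883 in sham rats and from 27961 to 32002 with a median of 29386 in TBI rats. Here 5 of 6 TBI values lay below every sham value. The log2 difference in cortex was -0.13 (SE 0.045, limma adjusted p = 0.048), close to the threshold, and the call was lost when any 1 of 10 rats was left out (sham rats 26, 34, 38, 50 and 55 and TBI rats 22, 24, 45, 52 and 56). Over all 12 omissions the log2 difference ran from -0.15 to -0.11 and the adjusted p from 0.015 to 0.10. It was also lost with upper quartile scaling (adjusted p = 0.069) and with no filter (adjusted p = 0.086).

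Aplp1, the third member of the family and largely confined to the nervous system, passed the test in neither region. In cortex it ranged from 35973 to 44763 with a median of 41828 in sham rats and from 40735 to 51530 with a median of 44027 in TBI rats, a log2 difference of 0.11 (SE 0.066, limma adjusted p = 0.23). In thalamus the medians were 45573 in sham and 45898 in TBI rats and the log2 difference was 0.0082 (SE 0.078, limma adjusted p = 0.95). Sham rat 26 stood apart there at 56029.

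Bace1, the beta-secretase that makes the first cut towards amyloid-beta, fell in the thalamus. It ranged from 7228 to 8561 with a median of 7835 in sham thalamus and from 5821 to 7012 with a median of 6621 in TBI thalamus. No TBI value reached the lowest sham value, and the log2 difference was -0.26 (SE 0.057, limma adjusted p = 0.0029). In cortex Bace1 ranged from 5563 to 5911 with a median of 5750 in sham rats and from 5087 to 5955 with a median of 5498 in TBI rats, so that the TBI values covered the whole sham range. The cortical log2 difference was -0.063 (SE 0.045, limma adjusted p = 0.31). The thalamic call held in all 20 alternatives, with log2 differences from -0.28 to -0.21.

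Adam10, the alpha-secretase that cuts within the amyloid-beta sequence, rose in the thalamus. It ranged from 3781 to 4794 with a median of 4192 in sham thalamus and from 4626 to 5802 with a median of 5009 in TBI thalamus. Of the TBI values 5 of 6 lay above every sham value, and the log2 difference was 0.27 (SE 0.068, limma adjusted p = 0.0062). In cortex it ranged from 3250 to 3877 with a median of 3561 in sham rats and from 2933 to 4163 with a median of 3820 in TBI rats, with a log2 difference of 0.053 (SE 0.079, limma adjusted p = 0.65). The thalamic call held in all 20 alternatives, with log2 differences from 0.24 to 0.33.

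Psen2, a catalytic subunit of gamma-secretase, was the only member that rose in cortex. It ranged from 616 to 718 with a median of 662 in sham cortex and from 674 to 969 with a median of 771 in TBI cortex. Of the TBI values 5 of 6 lay above every sham value, TBI rat 24 was the highest at 969, and the SD was 105 in TBI rats against 42.3 in sham rats. The log2 difference was 0.24 (SE 0.081, limma adjusted p = 0.034). The call was lost without sham rat 26, 32, 38 or 50 and without TBI rat 24, 45 or 56, when the adjusted p lay between 0.053 and 0.073. Over all 12 omissions of a rat, with or without loss of the call, the log2 difference stayed between 0.18 and 0.29. In thalamus Psen2 ranged from 1089 to 1294 with a median of 1245 in sham rats and from 1056 to 1230 with a median of 1145 in TBI rats, a log2 difference of -0.084 (SE 0.057, limma adjusted p = 0.28).

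Ncstn, which encodes nicastrin, the subunit of gamma-secretase with the large extracellular part, passed the test in neither region. Its medians were 3481 in sham and 3430 in TBI cortex and 3623 in sham and 3733 in TBI thalamus. The log2 difference was 0.021 (SE 0.048, limma adjusted p = 0.77) in cortex and 0.034 (SE 0.046, adjusted p = 0.61) in thalamus. In both regions the TBI and sham ranges overlapped.

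Mapt, the gene for tau, ranged in sham cortex from 27729 to 29550 with a median of 29054 and in TBI cortex from 25846 to 27684 with a median of 27089. All TBI values lay below all sham values, but the gap between the groups, from 27684 to 27729, was small. The log2 difference was -0.11 (SE 0.037, limma adjusted p = 0.042). The call was lost without sham rat 26, 32, 34, 38 or 55 and without TBI rat 22, 45, 52 or 56, and the adjusted p over all single omissions ran from 0.033 to 0.092. It was also lost with upper quartile scaling (adjusted p = 0.082), with no filter (adjusted p = 0.083) and with all 24 libraries in 1 fit (adjusted p = 0.070). In thalamus Mapt ranged from 26037 to 28440 with a median of 27711 in sham rats and from 23318 to 28986 with a median of 27107 in TBI rats. The thalamic log2 difference was -0.031 (SE 0.055, limma adjusted p = 0.70), and it was 0.010 without TBI rat 45, the lowest library.

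Across the 8 genes, 2 had groups without overlap in cortex (App and Mapt) and 2 in thalamus (Aplp2 and Bace1). Over all loci tested the groups did not overlap for 12.5% in cortex and 18.2% in thalamus.

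**Figure D2:**
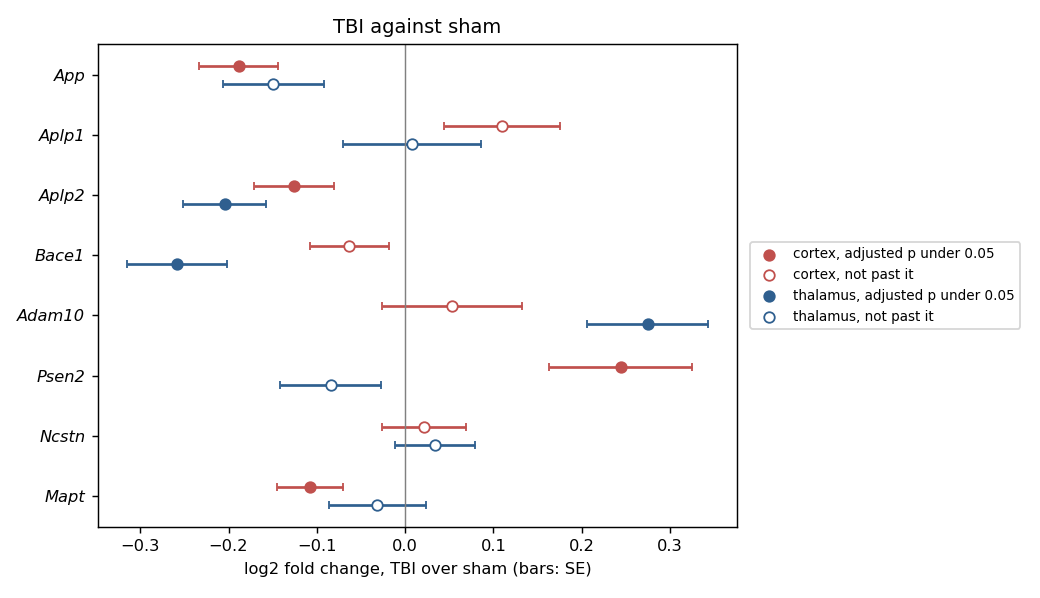
Log2 fold change of TBI over sham (horizontal axis) for the 8 genes in cortex and thalamus, with bars of 1 SE and filled points for a limma adjusted p under 0.05. In thalamus Bace1 (-0.26) and Adam10 (0.27) lie on opposite sides of 0, and App lies below 0 in both regions.

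An interaction term fitted to the 24 libraries compared the TBI effect between the regions. Of the 8 members 1 passed, Psen2, with a thalamus-minus-cortex difference of the log2 effects of -0.33 (SE 0.10, limma adjusted p = 0.045), where 7.26% of the 15678 loci tested passed. With the rat as a block, which takes account of both regions coming from the same rat, its adjusted p was 0.059, and it missed the threshold in 13 of 20 alternatives, including those without sham rat 26, 32, 34, 50 or 55 or TBI rat 24, 45, 56 or 63. For Bace1 the difference of effects was -0.20 (SE 0.070, adjusted p = 0.091) and for Adam10 0.22 (SE 0.11, adjusted p = 0.23). The thalamic changes of these 2 enzymes were therefore not shown to differ from their cortical values. App (0.039, adjusted p = 0.78), Aplp2 (-0.078, adjusted p = 0.48) and Mapt (0.077, adjusted p = 0.51) gave no difference past the threshold, nor did Aplp1 (-0.10, adjusted p = 0.62) or Ncstn (0.012, adjusted p = 0.94).

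The second question was how the 2 regions differed. In sham rats 5 of 8 members were higher in thalamus than in cortex and none was lower, where 62.2% of 15582 loci tested differed in either direction. Psen2 showed the largest difference of the 8, with a mean of 1214 ± 85.5 (SD, n = 6) in thalamus against 666 ± 42.3 in cortex and a log2 difference of 0.86 (SE 0.061, limma adjusted p = 4.9e-09). Bace1 followed at 7807 ± 461 against 5724 ± 132, a log2 difference of 0.45 (SE 0.043, adjusted p = 1.9e-07). For both genes every sham thalamus lay above every sham cortex, as 43.1% of all loci tested showed a full separation.

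Adam10 was higher in sham thalamus by a log2 difference of 0.26 (SE 0.062, limma adjusted p = 0.0020), with 5 of 6 thalamic values above all cortical ones. App (0.11, SE 0.040, adjusted p = 0.026) and Aplp1 (0.17, SE 0.067, adjusted p = 0.037) passed the threshold more narrowly. App lost its call without rat 26, 34, 50 or 55, under TMM scaling (adjusted p = 0.051) and with no filter on low values (adjusted p = 0.073). Aplp1 lost it without rat 26, 34 or 50, under TMM scaling (adjusted p = 0.060), with no filter (adjusted p = 0.056) and with the edgeR count model (adjusted p = 0.067). Ncstn (0.069, adjusted p = 0.20), Aplp2 (0.040, adjusted p = 0.46) and Mapt (-0.071, adjusted p = 0.10) did not pass. Mapt, on the other hand, passed as lower in thalamus under TMM scaling (log2 difference -0.091, adjusted p = 0.036), upper quartile scaling (-0.084, adjusted p = 0.043) and the edgeR count model (-0.10, adjusted p = 0.021).

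In TBI rats 4 of 8 members were higher in thalamus, where 57.5% of 15737 loci tested differed. Psen2 averaged 1144 ± 56.9 in thalamus against 793 ± 105 in cortex, a log2 difference of 0.54 (SE 0.079, limma adjusted p = 4.2e-05). Adam10 averaged 5162 ± 471 against 3722 ± 458, a log2 difference of 0.48 (SE 0.085, adjusted p = 0.00023). For both of them the regions did not overlap, as for 36.0% of all loci tested. Bace1 averaged 6533 ± 487 against 5486 ± 326, a log2 difference of 0.25 (SE 0.058, adjusted p = 0.0018). App differed by 0.15 (SE 0.059, adjusted p = 0.043), a call that was lost with the rat as a block (adjusted p = 0.050), under TMM scaling (adjusted p = 0.090), with no filter (adjusted p = 0.085), with the edgeR count model (adjusted p = 0.079) and without rat 22, 24, 52 or 56. Aplp1 (0.069, adjusted p = 0.47), Ncstn (0.081, adjusted p = 0.16), Aplp2 (-0.038, adjusted p = 0.51) and Mapt (0.0051, adjusted p = 0.94) did not pass.

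The order of the 4 group means differed between the genes. Psen2 and Adam10 ran from sham cortex through TBI cortex to the thalamic groups, with TBI thalamus highest for Adam10 and sham thalamus highest for Psen2. For Adam10 sham and TBI cortex overlapped, and so did TBI cortex and sham thalamus. For Psen2 the 2 cortical groups overlapped with each other and the 2 thalamic groups with each other, while no cortical value (up to 969) reached a thalamic one (from 1056). For Bace1 sham thalamus was highest and stood clear of the other groups, followed by TBI thalamus, sham cortex and TBI cortex, each of which overlapped with the next. App was lowest in TBI cortex and highest in sham thalamus, with the means of sham cortex (77984) and TBI thalamus (76010) between them and overlapping. Aplp2 was lowest in TBI thalamus, followed by TBI cortex, sham cortex and sham thalamus, and Mapt was highest in sham cortex, followed by sham thalamus, TBI thalamus and TBI cortex. For these genes, as for Aplp1 and Ncstn, which were lowest in sham cortex, the ranges of groups next to each other in the order overlapped.

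**Figure D3:**
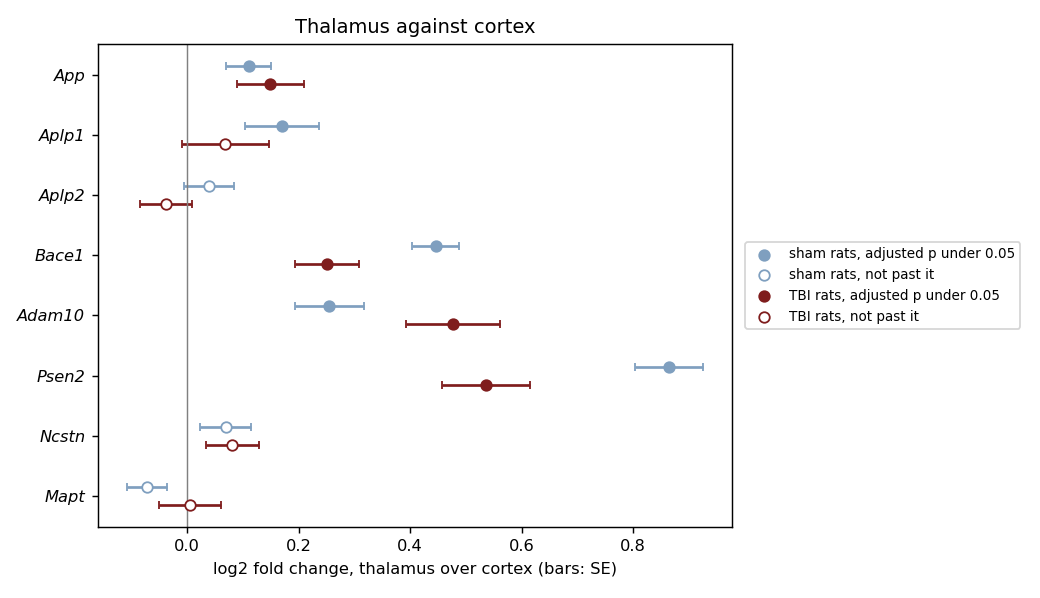
Log2 fold change of thalamus over cortex (horizontal axis) for the 8 genes in sham and in TBI rats, with bars of 1 SE and filled points for a limma adjusted p under 0.05. Psen2 (0.86 in sham and 0.54 in TBI rats), Bace1 and Adam10 lie to the right of 0 in both.

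Ratios of 2 genes within a library do not depend on how the library was scaled. They are described here without a test, as log2 ratios relative to the mean of sham cortex. The ratio of Bace1 to Adam10, beta- over alpha-secretase, ranged from 0.072 to 0.29 in sham thalamus with a median of 0.21, and from -0.60 to -0.16 in TBI thalamus with a median of -0.32. All 6 TBI thalami lay below all sham thalami, and the geometric mean ratio fell by 30.9%. In cortex the same ratio ranged from -0.16 to 0.14 in sham and from -0.33 to 0.25 in TBI rats, with overlap. The ratio of Aplp1 to App was also higher in all 6 TBI cortices (0.15 to 0.52) than in all sham cortices (-0.21 to 0.12). Bace1 alone already separated the thalamic groups and App alone the cortical groups, so these ratios partly repeat those values. How often ratios of other gene pairs separate the groups was not examined. Aplp2 and App kept closest to each other, with a ratio between -0.20 and 0.14 over all 24 libraries.

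**Figure D4:**
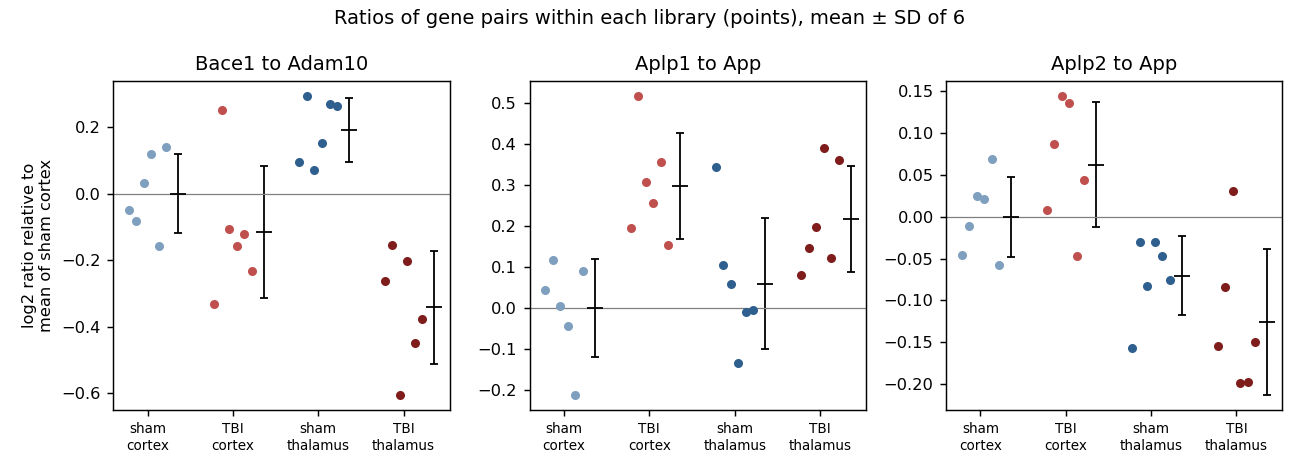
Log2 ratio of each gene pair within a library relative to the mean of sham cortex (vertical axes), 1 point per rat, with the mean ± SD of each group of 6. The Bace1 to Adam10 ratio is lower in all TBI thalami (-0.60 to -0.16) than in all sham thalami (0.072 to 0.29).

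The other subunits and enzymes of the secretases were described from a list of 6 genes. Of these 1 rose and none fell in cortex, beside 29.2% of all loci changed. In thalamus 3 rose and none fell, beside 35.4%. Adam17, an alpha-secretase best known for releasing tumour necrosis factor, rose by log2 differences of 0.24 in cortex (SE 0.057, limma adjusted p = 0.0056) and 0.29 in thalamus (SE 0.068, adjusted p = 0.0040). Bace2, a relative of Bace1, rose in thalamus from 473 ± 44.6 to 628 ± 118 (log2 difference 0.39, adjusted p = 0.012) and its effect differed between regions by 0.64 (adjusted p = 0.038). Aph1b, a subunit of gamma-secretase, rose in thalamus (0.26, SE 0.093, adjusted p = 0.044), and its cortical log2 difference was -0.013 (adjusted p = 0.93). The subunits Psenen and Aph1a passed in neither region, with log2 differences of 0.010 and 0.076 for Psenen and 0.13 and -0.038 for Aph1a in cortex and thalamus. Psenen averaged 2077 ± 113 and 2092 ± 128 in sham and TBI cortex, and Aph1a 2138 ± 122 and 2332 ± 134.

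TspanC8 tetraspanins carry Adam10 through the cell and direct it to its substrates. Tspan5 fell in cortex (log2 difference -0.32, SE 0.042, limma adjusted p = 8.3e-05) and thalamus (-0.23, adjusted p = 0.0021). Tspan17 fell in thalamus, from 1636 ± 157 to 1095 ± 153 (log2 difference -0.59, SE 0.095, adjusted p = 0.00031), with all TBI values below all sham values, and its effect differed between regions by -0.54 (adjusted p = 0.010). Tspan15 rose in cortex (0.32, adjusted p = 0.013) and Tspan14 in thalamus (0.18, adjusted p = 0.013). Of the family 1 rose and 1 fell among the 5 tested in cortex, beside 29.2% of all loci changed. Among the 6 tested in thalamus 1 rose and 3 fell, beside 35.4%.

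Of 23 genes for adaptors and sorting proteins that bind or route App, 2 rose and 12 fell in cortex, beside 29.2% of all loci changed. In thalamus 1 rose and 8 fell, a share near the 35.4% of all loci there, and the genes had median log2 differences of -0.15 and -0.084. Sorl1, a sorting receptor that keeps App away from the secretases, fell in cortex from 16560 ± 993 to 12600 ± 704 (log2 difference -0.39, SE 0.051, limma adjusted p = 7.9e-05). Its thalamic log2 difference was 0.19 (adjusted p = 0.087), and the effects differed between regions (0.58, adjusted p = 0.00063). Rtn4 fell in cortex (-0.40, adjusted p = 0.0011), and its thalamic log2 difference was -0.084 (adjusted p = 0.23). Rtn3 (-0.30, adjusted p = 0.0025) and Apba1 (-0.34, adjusted p = 0.00012) had the largest falls in thalamus. Both also fell in cortex, Rtn3 by -0.31 (adjusted p = 0.00088) and Apba1 by -0.21 (adjusted p = 0.0011). The reticulons bind and inhibit Bace1, and Apba1 is an adaptor that binds the tail of App. Itm2b, which encodes a protein that binds App, rose in thalamus (0.23, adjusted p = 0.0018), its relative Itm2c rose in cortex (0.21, adjusted p = 0.015), and the locus of Apba3, which is joined to a second gene and so is uncertain, rose in cortex (0.43, adjusted p = 0.030).

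Of 15 genes of amyloid-beta degradation and clearance tested, 9 rose and none fell in cortex, and 7 rose and 1 fell in thalamus. Over all loci tested 29.2% changed in cortex, 14.3% higher, and 35.4% in thalamus, 14.5% higher. The median log2 differences of the list were 0.24 and 0.18, beside -0.0096 and -0.023 over all loci. A2m, a secreted protease inhibitor that binds amyloid-beta, rose from 10.0 ± 4.4 to 136 ± 43.7 in cortex (log2 difference 3.64, SE 0.29, limma adjusted p = 2.0e-06) and from 111 ± 23.7 to 567 ± 96.9 in thalamus (2.36, adjusted p = 1.2e-07). The effects on A2m differed between regions by -1.28 (adjusted p = 0.023), a log2 value that rests on the low level in sham cortex. In normalized counts the rise was larger in thalamus. Abca1, which loads lipid onto apolipoprotein E, rose by 0.98 in cortex (adjusted p = 1.6e-05) and 1.25 in thalamus (adjusted p = 1.4e-06). Abca7 fell in thalamus (-0.37, adjusted p = 0.0014).

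Of 13 other substrates of Bace1 and Adam10 tested, none rose, 5 fell and 8 did not pass in cortex, beside 29.2% of all loci changed. In thalamus 1 rose, 7 fell and 5 did not pass, beside 35.4%. Scn4b, an auxiliary subunit of sodium channels, fell in thalamus from 5166 ± 933 to 1214 ± 458 (log2 difference -2.17, SE 0.24, limma adjusted p = 1.2e-05) and in cortex by a log2 difference of -0.42 (adjusted p = 0.039). Sez6l fell in thalamus by -0.63 (adjusted p = 3.3e-05), while Scn3b, another sodium channel subunit, rose there by 0.26 (adjusted p = 0.0074). In cortex Nrg1, the growth factor whose cutting by Bace1 promotes myelination, fell by -0.40 (adjusted p = 0.00024). For the region difference 1 of the 13 genes passed upwards and 4 downwards, beside 7.26% of all loci tested. Among them were Scn4b (-1.75, adjusted p = 0.00069), Sez6l (-0.50, adjusted p = 0.0022) and Scn3b (0.30, adjusted p = 0.043).

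Kinases and phosphatases that act on tau were mostly lower in both regions. Of 24 tau kinases and activators, 1 rose and 15 fell in cortex, and 1 rose and 15 fell in thalamus, with median log2 differences of -0.16 and -0.30. Over all loci tested 14.3% rose and 14.9% fell in cortex, and 14.5% rose and 20.9% fell in thalamus, with medians of -0.0096 and -0.023. The gene that rose in both was Mapk3, which encodes the kinase ERK1 (0.45 in cortex, limma adjusted p = 4.6e-05, and 0.16 in thalamus, adjusted p = 0.018). The largest falls were those of Mapk10 (-0.42, adjusted p = 0.00022) and Mapk9 (-0.32, adjusted p = 0.0027) in cortex, both stress-activated JNK kinases. In thalamus they were those of Ttbk1, a tau-tubulin kinase (-0.60, adjusted p = 1.4e-05), and Cdk5r1, which encodes the p35 activator of Cdk5 (-0.53, adjusted p = 9.2e-05). Of 10 tau phosphatase genes, none rose in either region, and 8 fell in cortex and 9 in thalamus. Ppp3ca, a catalytic subunit of calcineurin, fell by -0.36 in cortex (adjusted p = 0.014) and -0.53 in thalamus (adjusted p = 0.0011). Ppp3cb fell by -0.38 in cortex (adjusted p = 0.0023) and -0.32 in thalamus (adjusted p = 0.0016). Ppp2r2c, a regulatory subunit of phosphatase 2A, fell by -0.38 in thalamus (adjusted p = 7.7e-05) and -0.19 in cortex (adjusted p = 0.0025).

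Other microtubule-associated proteins, the relatives of tau in function, included larger differences than those of Mapt. Of 8 genes, 1 rose and 5 fell in each region, beside 29.2% of all loci changed in cortex and 35.4% in thalamus. Map1b fell by -0.31 in cortex (SE 0.046, limma adjusted p = 0.00022) and -0.44 in thalamus (SE 0.12, adjusted p = 0.010). Map9 fell by -0.30 in cortex (adjusted p = 0.0010) and -0.19 in thalamus (adjusted p = 0.028). Map1a fell by -0.52 in thalamus (SE 0.086, adjusted p = 0.00038) and -0.17 in cortex (adjusted p = 0.036). Map7 rose by 0.36 in cortex (adjusted p = 0.00076) and 0.47 in thalamus (adjusted p = 0.00041). Over all 8 lists together, 15 genes rose and 46 fell among 104 tested in cortex, and 15 rose and 48 fell among 105 tested in thalamus. Over all loci tested 14.3% rose and 14.9% fell in cortex, and 14.5% rose and 20.9% fell in thalamus. The median log2 difference over the list genes was -0.12 in cortex and -0.15 in thalamus, beside -0.0096 and -0.023 over all loci.

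**Figure D5:**
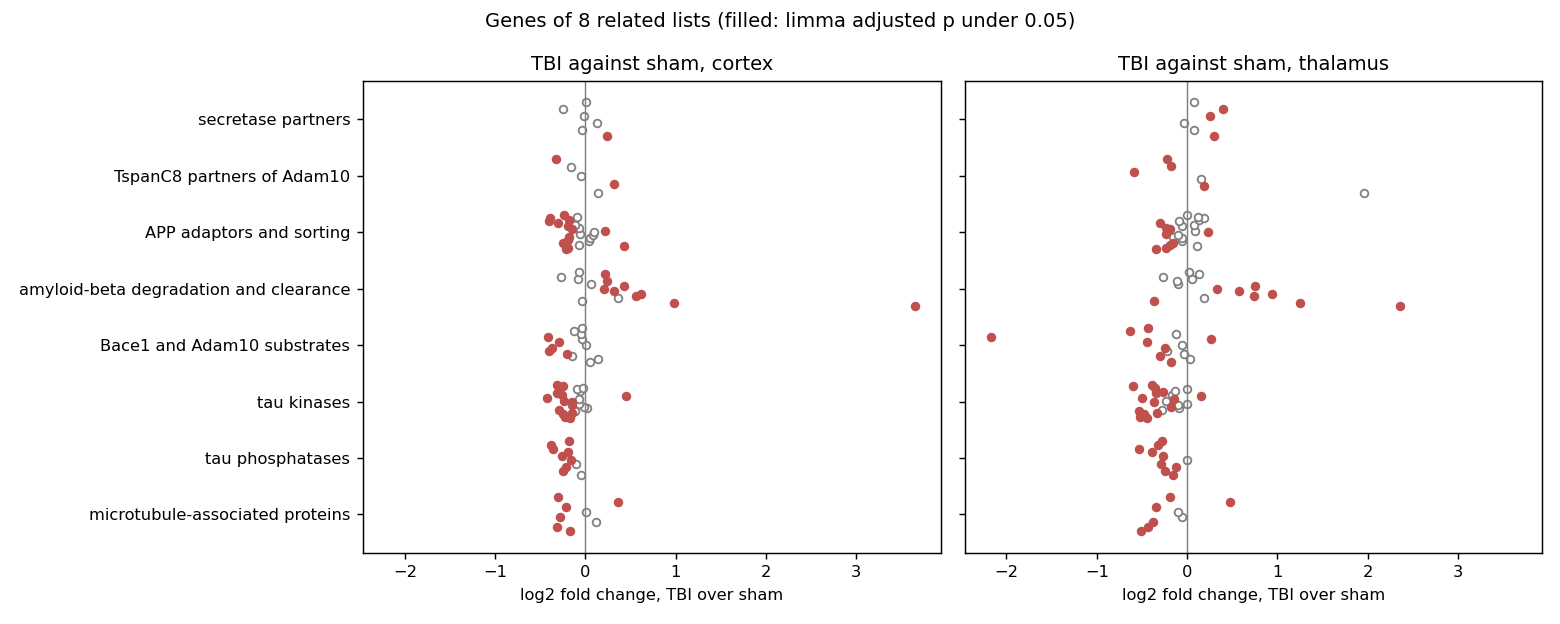
Log2 fold change of TBI over sham (horizontal axes) for the genes of 8 related lists in cortex and thalamus, 1 point per gene, filled where the limma adjusted p was under 0.05. Of 10 tau phosphatases 8 (cortex) and 9 (thalamus) changed, all of them below 0, and clearance genes lie mostly above 0. Over all loci tested 29.2% changed in cortex and 35.4% in thalamus.

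For each member the named loci with the most similar pattern over the 24 libraries were found among 15677 others, by the root mean square difference of log2 values around each gene's own mean. App was closest to Gnb1 (0.042) and Sdha (0.054), where the median locus differed from App by 0.30. Tox4 (0.057) was among the 2 closest to Aplp2. Aplp1 was closest to Arhgdia (0.072) and Puf60 (0.076), and Mapt to Add1 (0.056) and Tmem55b (0.057). Bace1 was closest to Icmt (0.064) and Zbtb4 (0.069), Adam10 to Cd164 (0.081) and Sh3glb1 (0.084), and Ncstn to Ttc13 (0.054) and Naa35 (0.060). Psen2 was closest to a locus that joins P4htm and Wdr6 (0.10) and to Slc25a39 (0.10). No member was among the 2 closest of another, and the nearest pair was App and Aplp2, with Aplp2 in position 308 for App. The libraries share regions, rats and the injury contrast, and this likeness is a description.

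Markers of several cell types moved with the injury, beside 29.2% of all loci changed in cortex and 35.4% in thalamus. Of 10 neuronal markers 8 fell in each region, and their summed normalized counts ranged from 253854 to 343804 in TBI and 365726 to 397245 in sham cortex, and from 183878 to 234287 in TBI and 278314 to 340645 in sham thalamus. Of 12 microglial markers 11 rose in cortex and 12 in thalamus, with sums of 19402 to 23433 in TBI and 13204 to 14345 in sham cortex and 30344 to 39933 in TBI and 14710 to 19478 in sham thalamus. Of 9 astrocyte markers 5 rose in each region and 2 fell in cortex, with sums of 406792 to 451551 in TBI and 373808 to 394864 in sham cortex and 404328 to 465044 in TBI and 283942 to 315993 in sham thalamus. In cortex the mean of Gfap rose from 12340 to 59940, while that of Slc1a2 fell from 185200 to 160200. The higher cortical sums rest on Gfap and do not stand for the whole set. Of 6 endothelial markers 1 rose in cortex and 3 in thalamus.

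Oligodendrocyte markers went with region more than with injury. All 9 were higher in thalamus than in cortex in sham and in TBI rats, where 62.2% and 57.5% of all loci tested differed. Their sums were 724090 to 1009169 in sham thalamus against 231789 to 311216 in sham cortex. After TBI 3 of the 9 rose in cortex and 1 in thalamus, beside 29.2% and 35.4% of all loci changed. The summed ranges overlapped in cortex (229983 to 301799 in TBI rats). Of 5 markers of oligodendrocyte precursors 3 rose in cortex and 1 in thalamus, beside the same shares. Of 6 choroid plexus markers none changed by limma in cortex or thalamus. The part of these markers in the changes of the 8 members was not tested. Without TBI rat 45, whose libraries held the most Ttr in their groups, App alone of the 8 remained changed in cortex, and Aplp2, Bace1 and Adam10 in thalamus. The cortical log2 differences that lost their call were then -0.13 for Aplp2, 0.22 for Psen2 and -0.098 for Mapt, and App was also the sole call without sham rat 26, sham rat 38 or TBI rat 56.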

How the data were processed

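RNA of perilesional cortex and ipsilateral thalamus from 6 TBI and 6 sham-operated rats was prepared by the authors as polyadenylated, stranded libraries. They aligned reads with TopHat2 2.0.11 and Bowtie2 2.2.2 and assembled transcripts with Cufflinks 2.2.1. Per the labels the build was Rnor_5.0, and the methods also name RGSC3.4. The deposited values are a signal per locus, namely fragment counts divided by a scaling factor for each library. Low values were whole multiples of 1 step, and the division gave whole fragments (within 0.1) for 99.97% to 99.99% of values, which shows the depth. A second deposited table gave gene names and positions. Loci without a name (1.90% to 2.23% of the signal per library) were left out.

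Loci with a mean of at least 10 were tested with limma 3.58.1 in R 4.3.3 on log2(value + 1), within the libraries of each comparison or, for the interaction, over all 24, with Benjamini-Hochberg adjustment. A fold change on this scale understates changes of low genes. The 5 comparisons were repeated with TMM or upper quartile scaling, with no filter or a minimum mean of 50, with a pseudocount of 0.1 or 5, with edgeR 4.0.16 (quasi-likelihood) on recovered fragments, with all 24 libraries in 1 fit, with the rat as a block, and without each rat in turn. The scripts were tested on simulated data. Numbers pair the regions because they mark the same rat. Deviations of a rat's 2 libraries correlated with a median of 0.187 (0.00393 to 0.569, over 0.1 in 10 of 12 rats). Each rat gave 1 library per region.

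The 8 members and the lists were chosen with earlier results of these data known. Named genes were the members, Psenen, Aph1a, Bace2 and Aph1b (the last added after its values were seen), up to 2 largest rises and 2 largest falls past the threshold per list and region, and the 2 most similar loci per member. Ace, Chl1 and Ly6c1 were not analysed here. A few listed or similar genes are not reported here, and counts over the lists leave them out. Symbols were matched exactly or, failing that, ignoring case.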

Additional observations from a re-analysis of the deposited data

Results flagged for a closer look

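The Aplp1 value of sham rat 26 in thalamus, 56029 normalized counts, stood apart from the next highest sham thalamus, at 45930, by more than Dixon's 95% limit for 6 values. Of the 32 groups of member values checked 1 exceeded it, and chance gives about 1 in 20. Without this rat the thalamus-against-cortex difference of Aplp1 in sham rats was 0.12 on the log2 scale (limma adjusted p = 0.099).

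The effect of TBI on Psen2 differed between the regions by -0.33 on the log2 scale (limma adjusted p = 0.045), with 5 of 6 TBI cortices above all sham cortices and none of the TBI thalami above all sham thalami. With the rat as a block its adjusted p was 0.059.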

How the results depend on the processing

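The thalamic calls of Aplp2, Bace1 and Adam10 and the cortical call of App kept direction and side of the threshold in all 20 alternatives, as did the region calls of Psen2, Bace1 and Adam10 in sham and TBI rats in all 14. The other calls were lost in some alternatives, and the cause of each change below was not tested. In cortex the members called were 2 with upper quartile scaling and 2 with no filter on low values, and 1 to 4 without single rats. For thalamus against cortex in sham rats they were 3 with no filter and 3 to 5 without single rats. In the interaction they were 0 with upper quartile scaling, no filter, the edgeR count model and the replicate block for the rat, and 0 to 1 without single rats (limma or edgeR, with 2 to 3 members at an unadjusted p under 0.05). The loci called in the interaction ranged from 690 to 1204 without single rats, lowest without TBI rat 24 and 695 without sham rat 50. Apart from Psen2 in the interaction and App in TBI rats the paired block changed no member's call. Differences that were never called and changed sign were those of Mapt in thalamus (0.0082 with upper quartile scaling, 0.023 with edgeR and -0.053 to 0.010 without single rats), Mapt between regions in TBI rats (-0.015 with TMM, -0.023 with edgeR and -0.025 to 0.036), Ncstn in cortex (-0.0040 to 0.036), Aplp1 in thalamus (-0.027 to 0.061) and Ncstn in the interaction (-0.019 to 0.046). TMM or upper quartile scaling moved the median of all loci by at most 0.039. With the edgeR count model the median of TBI against sham in thalamus was 0.033, beside -0.023 in the main fit. With 6 rats a group, differences of the size of those of Mapt or Aplp2 in cortex lie near what the test can call.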

Other observations

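The related lists also differed between thalamus and cortex in sham rats. Of the 104 list genes tested 41 were higher and 37 lower in thalamus by limma. Of all 15582 loci tested 62.2% differed, 5278 higher and 4415 lower, with a median log2 difference of 0.031. Genes of amyloid-beta clearance were higher there in 11 of 15 cases and lower in none, with a median log2 difference of 0.34, and examples chosen after their values were seen are Abca1 (0.70), Ctsd (0.42) and Cst3 (0.41). Tau kinases were lower in 11 of 24 cases and higher in 5, a share that differed near that of all loci. Camk2a (-2.25) and Mapk10 (-1.05) were among those that were lower. Sorl1 was lower in sham thalamus by -2.15. All genes named here were chosen after their values were seen. The lists were chosen with results of these data known, so these counts describe them and support nothing further.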
